A study of Rattus norvegicus with 4 samples.

Results

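The genes described here encode the enzymes and close partners that remove the cap of a messenger RNA and degrade the RNA from its 5′ end. They are Dcp1a, Dcp1b, Dcp2, Dcps, Xrn1, Xrn2, Nudt16, Edc3, Edc4 and Lsm1. A probe was taken as a member when it was a gene probe whose name in the array files was one of these 10 symbols, which gave 17 probes of the 41012 gene probes and 10 of the 34235 gene names on the array. Dcp1a, Dcp1b, Dcp2, Dcps, Nudt16 and Lsm1 had 1 probe each, Edc3 had 2, and Xrn1, Xrn2 and Edc4 had 3 each. The probes of a gene are numbered below by their place in the transcript, from the 5′ end. The rule itself uses no measured value, though the 10 genes were chosen with earlier results of these data known.

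The series compared primary cultures of rat cortical neurons with less of the cap methyltransferase CMTR1 and their controls. The shCM1 cultures received a lentivirus carrying a short hairpin RNA against Cmtr1, and the shCTL cultures a lentivirus carrying a control hairpin. Both were made from cortices of Sprague Dawley embryos of both sexes at stage E18.5, were infected on day 2 in vitro and were harvested on day 7. Each group held 2 Agilent arrays labelled with Cy3, and the series describes 2 independent experiments. Replicate 1 of both groups lay on slide 1 and replicate 2 of both on slide 2, so each slide gives 1 difference between shCM1 and shCTL. The labels name 1 hairpin per group, and no source used names the promoter that drives it. The hairpin sequences were not in the sources used here, so effects of less CMTR1 and off-target effects of the hairpin cannot be told apart.

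Eukaryotic mRNAs carry a methylated guanosine cap that protects the 5′ end and recruits translation factors. In the main route of decay the poly(A) tail is shortened, activators such as the LSM1 ring, EDC3 and EDC4 bring in the decapping enzyme DCP2 with its cofactor DCP1, and the exposed end is digested by XRN1 in the cytoplasm. XRN2 does the same work in the nucleus, where it helps to end transcription, while DCPS clears the capped fragments left when RNA is degraded from the other end. CMTR1 methylates the ribose of the nucleotide next to the cap, and the nuclease DXO is known to prefer caps that lack this mark.

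The arrays read these genes through probes of 60 bases. The sequences below are those of probes on which the results turn and which have at least 1 forward frame without a stop codon. Whether a probe lies in coding sequence was not determined. They are the probe of Dcps, which had the highest difference with the main scaling, and the 2 upstream probes of Edc4. With that scaling these 2 had the opposite sign to the 3′ probe of Edc4, but probe 1 shared its sign after quantile normalization. The others are the 3 probes of Xrn2 and the probes of Lsm1 and Nudt16. Xrn2 probe 1 parted from probes 2 and 3 on slide 2, and the levels of Lsm1 and Nudt16 differed little between the slides. Positions are on rat genome build rn4 as the array files give them. Dcps lies at chr8:34904086-34904145 on the minus strand, Nudt16 at chr8:110200513-110200572 on the minus strand and Lsm1 at chr16:70653435-70657391 on the minus strand. Edc4 probe 1 lies at chr19:35724649-35725006 and probe 2 at chr19:35726268-35726402, both on the plus strand. For Lsm1 and these 2 Edc4 probes the genomic interval is longer than the probe, at 3957, 358 and 135 bases. Xrn2 probes 1, 2 and 3 lie at chr3:135671574-135671633, chr3:135694935-135694994 and chr3:135707713-135707772 on the plus strand. The sequences are written 5′ to 3′ in lower case, with no base marked.
Dcps: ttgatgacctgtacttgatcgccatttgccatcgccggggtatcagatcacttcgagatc
Edc4 probe 1: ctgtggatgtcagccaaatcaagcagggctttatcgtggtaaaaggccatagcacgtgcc
Edc4 probe 2: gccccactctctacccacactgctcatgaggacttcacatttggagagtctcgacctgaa
Xrn2 probe 1: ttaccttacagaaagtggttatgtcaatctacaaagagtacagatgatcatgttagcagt
Xrn2 probe 2: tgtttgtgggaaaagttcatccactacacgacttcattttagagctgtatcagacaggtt
Xrn2 probe 3: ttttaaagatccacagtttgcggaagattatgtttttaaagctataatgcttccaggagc
Lsm1: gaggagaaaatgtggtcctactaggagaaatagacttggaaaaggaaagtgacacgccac
Nudt16: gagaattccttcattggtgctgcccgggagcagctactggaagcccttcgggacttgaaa

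Levels are the log2 processed signal minus the log2 of the array's own 75th percentile signal, so 0 is the brightness at that percentile. That percentile was 596.289 and 743.67 signal units in shCM1 replicates 1 and 2, and 652.193 and 754.532 in shCTL replicates 1 and 2. The share of gene probes well above background was 84.0% on the lowest array and 90.4% on the highest. Levels of different probes are not compared, because each probe has its own brightness per RNA molecule. Differences are shCM1 minus shCTL on the log2 scale, and values listed for an array group are in the order of replicates 1 and 2. The errors given are standard errors of the limma fit without a block, and intervals are 95% intervals of the limma fit with the slide as a block. p-values cover only the spread between these samples, which may be partly technical. The arrays measured whole cultures, in which fewer cells of a type and less RNA per cell cannot be told apart.

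The knockdown was visible in the targeted gene. Cmtr1 had levels of -3.46 and -3.53 in the shCM1 arrays, against -1.43 and -1.86 in the shCTL arrays. The groups did not overlap, and the shCM1 mean of Cmtr1 was 27.7% of the shCTL mean. The difference was -1.85 on the log2 scale (SE 0.22, n = 2 arrays per group), with -2.04 and -1.67 within slides 1 and 2. In limma the adjusted p was 1.69e-06 with the slide as a block and 1 without it. With the block but no intensity trend in the variance prior it was 0.242, and with normexp background correction the difference was -1.22. The 10 neuronal markers looked for, among them Tubb3 and Map2, were all well above background on the 4 arrays, with summed linear levels of 283 and 210 in shCM1 and 302 and 233 in shCTL.

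No member differed between the groups by either limma fit. Of the 17 probes 0 passed an adjusted p of 0.05 in the fit without a block, in which 0 of 36703 probes on the whole array (0.0%) passed and 3.03% had an unadjusted p below that value. With the slide as a block 0 of the 17 passed, where 2159 of all probes (5.88%) did, 3.2% higher and 2.69% lower, and the adjusted p of the members ran from 0.158 to 0.998. Unadjusted, 2 of the 17 (11.8%) were below 0.05 in the blocked fit, against 22.5% of all probes, and 0 of the 17 in the fit without a block. The log2 differences ran from -0.20 to 0.25, with a median of 0.08, which was also the median of all probes tested. The median absolute difference was 0.10 for the members and 0.17 for all probes tested.

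The share of members higher in shCM1 within both slides depended on the scaling. Of the 17 probes 11 (64.7%) were higher in shCM1 within both slides, against 44.2% of all probes, and 2 (11.8%) were lower within both, against 22.6%. The remaining 4 went opposite ways in the slides, as did 33.2% of all probes. After quantile normalization the median difference of all probes was 0.01. Then 6 of the 17 (35.3%) were higher within both slides, against 31.4% of all probes, and 2 (11.8%) were lower, against 30.2%. Cyclic loess and the authors' value table also gave 6 higher and 2 lower. With normexp 11 (64.7%) were higher within both, against 45.7% of all probes, and 1 (5.88%) was lower, against 21.7%. The groups did not overlap for 5 of the 17 probes (29.4%), all with shCM1 above, while 31.8% of all probes did not overlap, 21.8% with shCM1 above and the others with shCM1 below. That count was 4 after quantile normalization and 1 in the authors' value table. The share of all probes without overlap was not computed for these scalings, so the change in the count cannot be tied to the members.

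**Figure D1:**
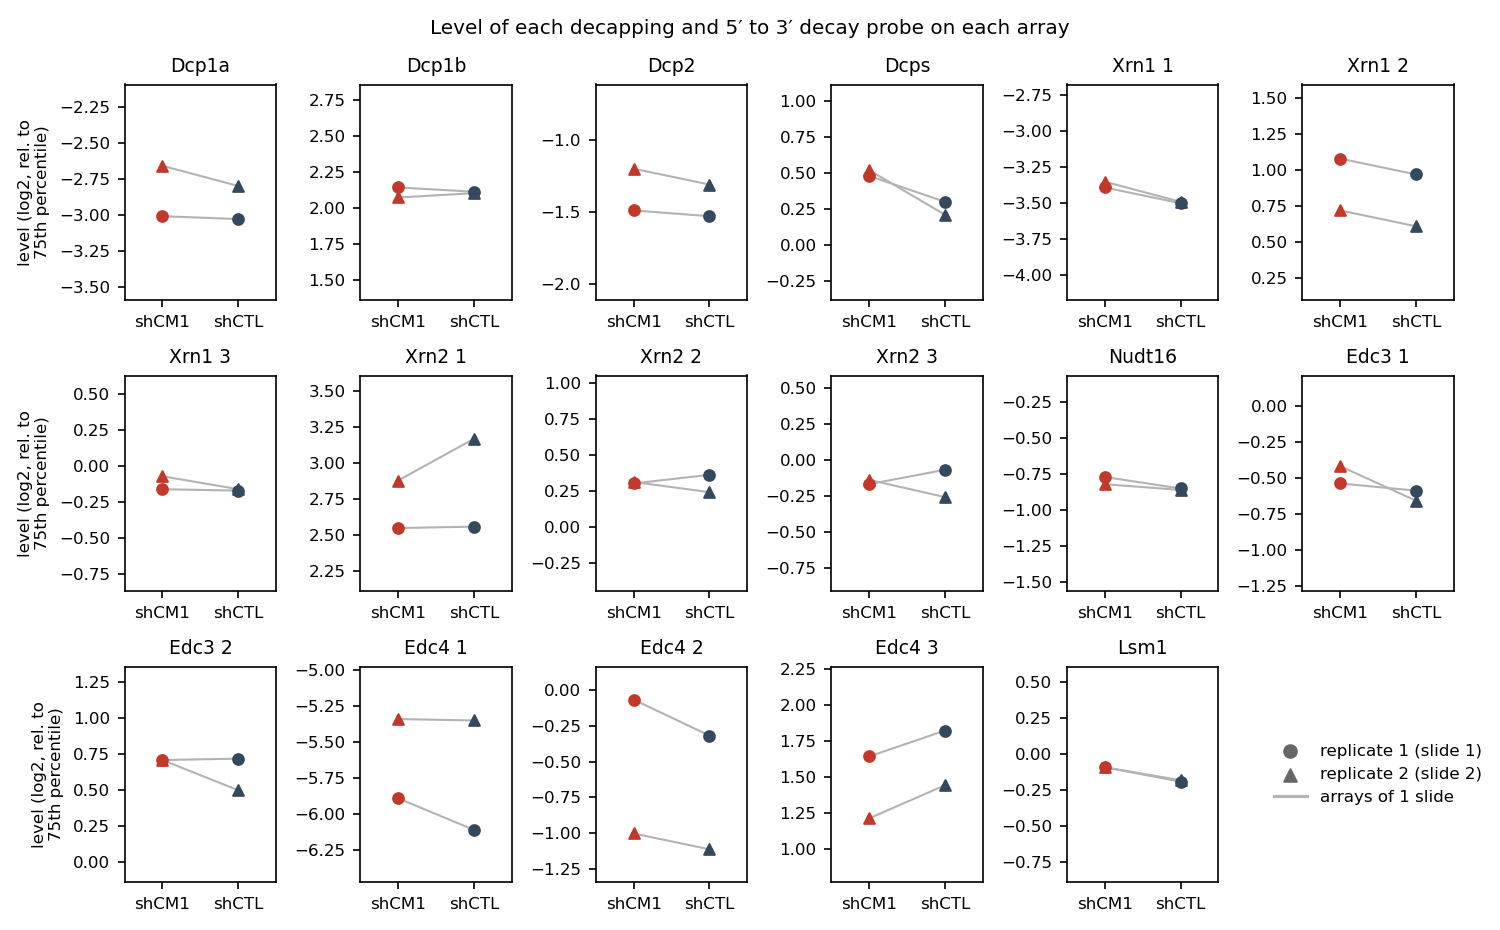
Level of each of the 17 probes (log2, relative to the array's 75th percentile) on the 4 arrays, with shCM1 left of shCTL, circles for replicate 1 on slide 1, triangles for replicate 2 on slide 2 and a line joining the arrays of a slide. Each panel has its own axis of equal span. For Edc4 probe 2 the slides lie further apart than the groups, and for Dcps both shCM1 arrays lie above both shCTL arrays.

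The catalytic decapping enzyme and its cofactors showed values that overlapped between the groups. Dcp2, which cuts the cap from the RNA, had levels of -1.49 and -1.20 in shCM1, against -1.53 and -1.31 in shCTL. The groups overlapped because slide 2 was higher in both, and the log2 difference was 0.08 (SE 0.19, n = 2 arrays per group). Its blocked interval ran from -0.17 to 0.32, which is 88.8% to 125% of the control level. Dcp1a, the cofactor that stimulates DCP2, had levels of -3.01 and -2.66 in shCM1, against -3.03 and -2.80 in shCTL, and these overlapped as well. Its difference was 0.08 (SE 0.22), with 0.02 within slide 1 and 0.13 within slide 2. Dcp1b, the paralog of Dcp1a, had levels of 2.14 and 2.07 in shCM1, against 2.11 and 2.10 in shCTL. Its mean stood at 100% of control, with 0.03 within slide 1 and -0.03 within slide 2 and a blocked interval from -0.19 to 0.19.

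Of the decapping activators, Lsm1 and the upstream probe of Edc3 had no overlap between the groups. Lsm1, a subunit of the cytoplasmic ring that binds shortened poly(A) tails and promotes decapping, had a level of -0.09 in both shCM1 arrays, against -0.19 and -0.18 in the shCTL arrays. The shCM1 arrays were higher by 0.09 and 0.10 within the slides, with a mean of 0.10 (SE 0.15). In the blocked limma fit the interval of Lsm1 ran from -0.13 to 0.32 and the adjusted p was 0.624. Edc3, a scaffold that binds DCP2 and helps to form P-bodies, had levels of -0.54 and -0.42 in shCM1, against -0.59 and -0.66 in shCTL, by its probe 1. The difference of this probe was 0.15, with 0.06 and 0.24 within slides 1 and 2 and an adjusted p of 0.457 in the blocked limma fit. Edc3 probe 2 had levels of 0.71 and 0.71 in shCM1, against 0.72 and 0.50 in shCTL, so that 1 shCTL array lay above both shCM1 arrays. Its within-slide differences were -0.01 and 0.22, so both Edc3 probes were further apart on slide 2.

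Edc4, the large scaffold that joins DCP1 to DCP2, gave different signs from its probes. Probe 3, at the 3′ end of the transcript (start at base 4669), had levels of 1.64 and 1.21 in shCM1, against 1.82 and 1.44 in shCTL. It was lower in shCM1 within both slides, by log2 differences of -0.18 and -0.23, though the groups overlapped. It averaged 86.9% of control (difference -0.20, SE 0.23), with a blocked interval from -0.40 to -0.0044 and, in limma, an unadjusted p of 0.0457 and an adjusted p of 0.212. Probe 2 (start at base 1770) had levels of -0.07 and -1.0 in shCM1, against -0.32 and -1.11 in shCTL. This probe was higher in shCM1 within both slides, by 0.25 and 0.11, with a mean of 0.18 (SE 0.41) and an adjusted p of 0.355 in the blocked limma fit. Its level differed more between the slides, by -0.93 in shCM1 and -0.79 in shCTL for slide 2 minus slide 1, than between the groups. Probe 1 (start at base 1012) was dim, with levels of -5.89 and -5.34 in shCM1, against -6.11 and -5.35 in shCTL. It was well above background on 3 of the 4 arrays, shCTL replicate 1 being the exception. Its difference of 0.11 had the widest blocked interval of the 17 probes, from -0.55 to 0.78, and its sign turned after quantile normalization, to -0.16.

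The contrast between Edc4 probes 3 and 2 does not depend on how the arrays are scaled to each other by a constant. The log2 ratio of probe 3 to probe 2 was 1.71 and 2.21 in shCM1, against 2.14 and 2.55 in shCTL. It was lower in shCM1 by -0.43 within slide 1 and -0.33 within slide 2, with a mean of -0.38, and the groups overlapped because slide 2 was higher in both. Across the array, 4799 genes with more than 1 probe gave 8281 probe pairs. Of these 386 (4.66%) parted in 1 direction within both slides, on each by at least the smaller of the Edc4 pair's within-slide values. The mean was -0.31 after quantile normalization and -0.40 with normexp. The pair was picked after its values were seen, so the contrast has no test.

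**Figure D2:**
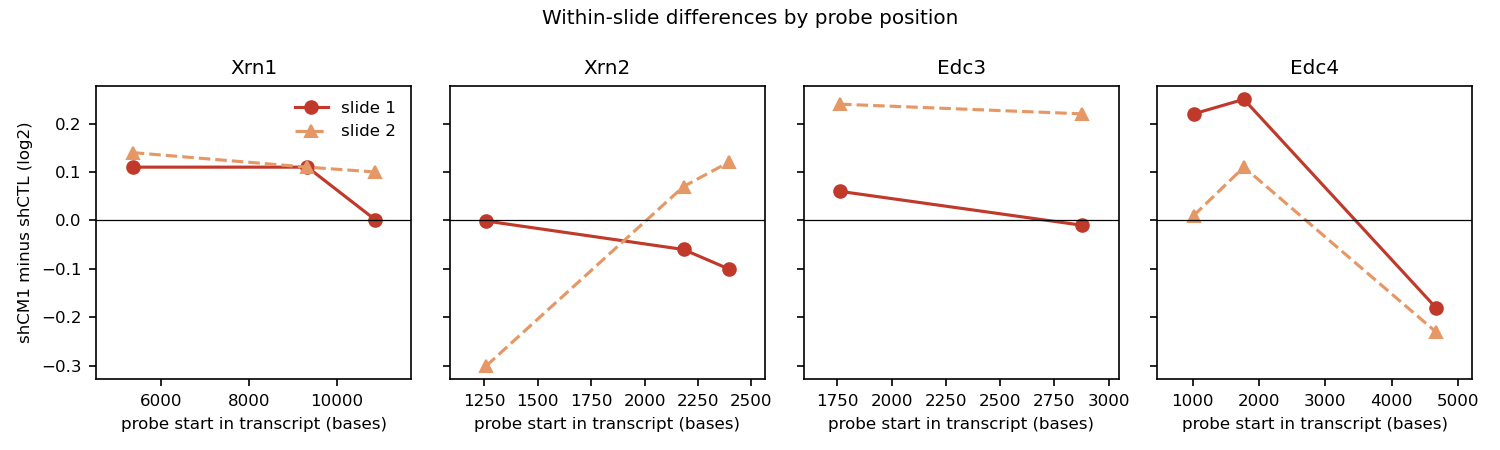
Difference of shCM1 minus shCTL (log2) within slide 1 (circles, solid lines) and slide 2 (triangles, dashed lines) against the start of the probe in the transcript in bases, for the 4 genes with more than 1 probe. The 2 upstream probes of Edc4 lie above 0 in both slides and its 3′ probe lies below 0 in both, at -0.18 and -0.23.

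XRN1 is the cytoplasmic exonuclease that digests decapped RNA. Xrn1 probe 1 had levels of -3.39 and -3.35 in shCM1, against -3.50 and -3.49 in shCTL, with no overlap. Xrn1 probe 2 had levels of 1.08 and 0.72 in shCM1, against 0.97 and 0.61 in shCTL, so that slide 1 lay above slide 2 in both groups. Probe 3 of Xrn1 had levels of -0.16 and -0.07 in shCM1, against -0.17 and -0.16 in shCTL. The 3 probes had log2 differences of 0.13, 0.11 and 0.05, each higher in shCM1 within both slides, the smallest being 0.0019 for probe 3 within slide 1. The adjusted p of the blocked limma fit was 0.671, 0.533 and 0.821. After quantile normalization probe 1 turned to -0.03. The blocked interval of probe 2 ran from -0.10 to 0.32.

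XRN2, its nuclear relative, releases RNA polymerase II by degrading the RNA downstream of the cleavage site. Xrn2 probe 1 had levels of 2.55 and 2.88 in shCM1, against 2.56 and 3.17 in shCTL. Its groups overlapped, and its difference of -0.15 (SE 0.25, 90.1% of control) came from slide 2, with -0.0013 within slide 1 and -0.30 within slide 2. Xrn2 probe 2 had levels of 0.30 and 0.31 in shCM1, against 0.36 and 0.24 in shCTL, and probe 3 had -0.17 and -0.14 in shCM1, against -0.07 and -0.26 in shCTL. Both had a difference of 0.01 and opposite signs within the slides, -0.06 and 0.07 for probe 2 and -0.10 and 0.12 for probe 3. On slide 2, therefore, probe 1 was lower in shCM1 where probes 2 and 3 were higher. The adjusted p of the blocked limma fit was 0.363 for probe 1, 0.984 for probe 2 and 0.974 for probe 3.

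Dcps had the largest difference of the 17 probes with the 75th percentile scaling, at 0.25, while with normexp it had 0.20 and Edc4 probe 3 had -0.26. This scavenger enzyme hydrolyses the cap left on short fragments after decay from the 3′ end. Its levels were 0.48 and 0.52 in shCM1, against 0.30 and 0.21 in shCTL. Both shCM1 arrays lay above both shCTL arrays, and the shCM1 mean stood at 119% of control. The log2 difference was 0.25 (SE 0.15, n = 2 arrays per group), with 0.18 within slide 1 and 0.32 within slide 2. In the blocked limma fit the interval of Dcps was 0.03 to 0.47, which is 102% to 138% of control, with an unadjusted p of 0.0258 and an adjusted p of 0.158. Without the block its interval ran from -0.13 to 0.64. Leaving out each array in turn, without the block, gave 0.21 to 0.30. Its processed signal, before scaling, was 831 and 1070 units in shCM1, against 800 and 870 in shCTL.

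Nudt16, a hydrolase that can also remove caps, had levels of -0.77 and -0.82 in shCM1, against -0.85 and -0.86 in shCTL. The groups did not overlap, but the differences of 0.08 and 0.03 within the slides were small, with a mean of 0.06 and a blocked interval from -0.18 to 0.29. Dxo, the nuclease that acts on caps without ribose methylation and is not among the 10 genes, had levels of 2.24 and 2.62 in shCM1, against 2.27 and 2.53 in shCTL. Its difference was 0.03, with an interval from -0.16 to 0.22 and an adjusted p of 0.872 in the blocked limma fit.

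**Figure D3:**
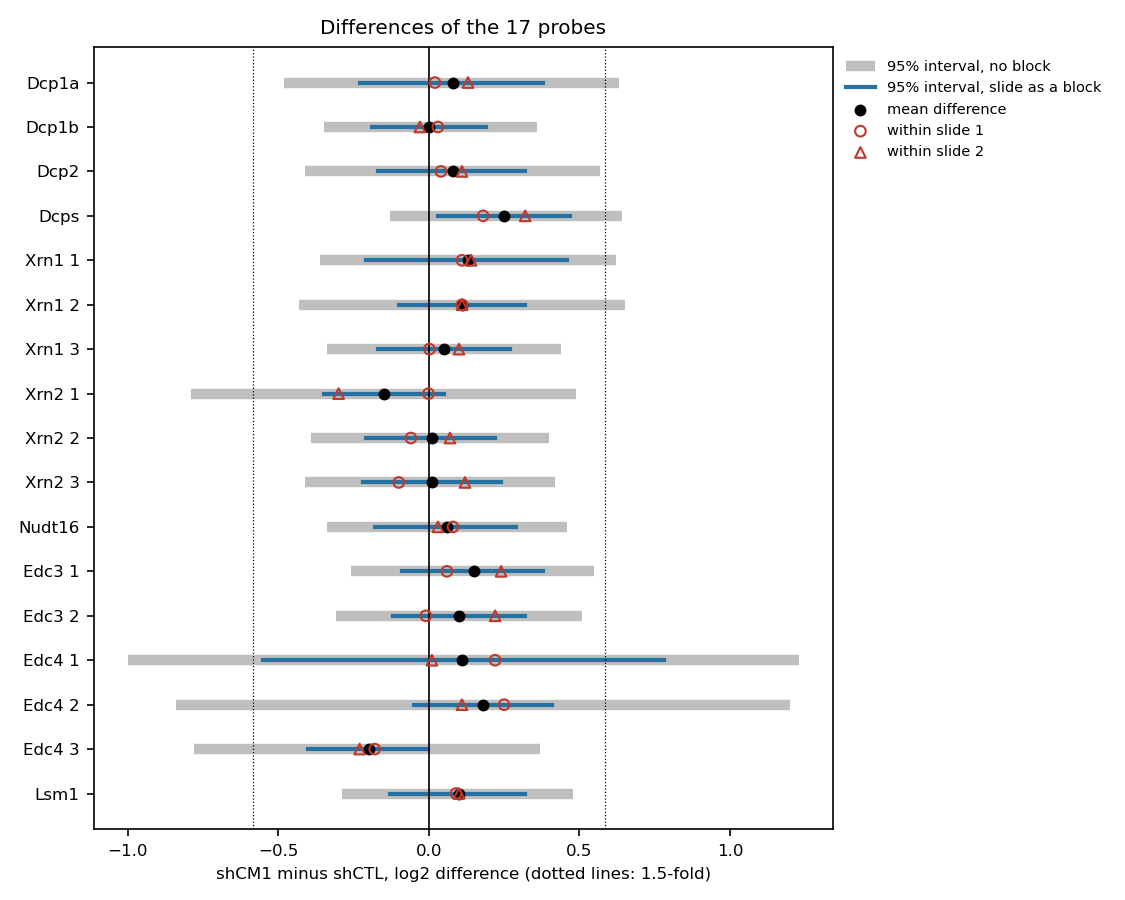
Log2 difference of shCM1 minus shCTL for the 17 probes. Filled points are means, open circles and triangles are the values within slides 1 and 2, thin blue bars are 95% intervals of the limma fit with the slide as a block, wide grey bars are those without it, and dotted lines mark 1.5-fold. The blocked interval of Edc4 probe 1 is the only 1 of the 17 that crosses a dotted line.

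The intervals bound how large a difference could have been missed. With the slide as a block, 16 of the 17 intervals lay within 1.5-fold either way (0.58 on the log2 scale), the exception being Edc4 probe 1, and all 17 lay within 2-fold. Over those 16 the bounds ran from -0.40 to 0.47. Without the block 9 of 17 lay within 1.5-fold and 15 within 2-fold. The blocked standard errors, 0.09 to 0.31, rest mainly on a variance prior drawn from probes of like brightness, since the fit leaves 1 residual degree of freedom. Over the array 6.42% of probes had a mean difference of at least 1.5-fold.

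**Figure D4:**
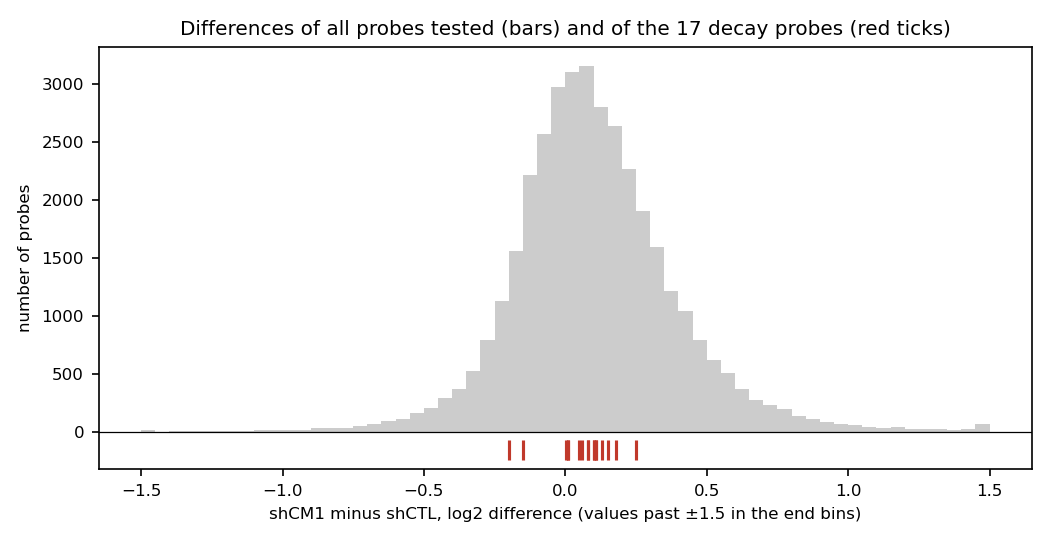
Number of probes by log2 difference of shCM1 minus shCTL, for all 36703 probes tested (grey bars, with values past the ends of the axis in the outer bins), and the 17 decay probes as red ticks under the axis. The red ticks lie between -0.20 and 0.25, in the middle of the grey distribution.

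Slides differed more than groups for most of these probes. The mean of slide 2 differed from that of slide 1 by more than shCM1 differed from shCTL for 12 of the 17 probes (70.6%), against 62.6% of all probes. The widest gaps between slides were those of Edc4 probes 2 and 1, followed by Xrn2 probe 1, whose level on slide 2 was higher than on slide 1 by 0.32 in shCM1 and by 0.62 in shCTL. The median absolute slide difference was 0.08 for the 17 probes, below the 0.26 of all probes.

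Other genes of RNA decay were read from 8 lists, 1 probe per gene, with 84 of 94 genes measured. In the blocked limma fit 5 of the 84 passed, against 6.1% of all genes. Of these 3 rose and 2 fell, against 3.33% and 2.77% of all genes, and 0 passed without the block. Within both slides 27 of the 84 were higher in shCM1, against 44.0% of all genes, and 38 were lower, against 22.6%. The median difference of the 84 was -0.02, against 0.08 for all probes. Of the 14 measured decapping activators and P-body proteins 0 passed, with a median of 0.02. Their lowest value was that of Lsm6, a subunit shared by the cytoplasmic and nuclear LSM rings, at -0.72 (adjusted p = 0.137 in the blocked limma fit). The Lsm6 probe was dim, with levels of -5.34 and -6.07 in shCM1, against -4.49 and -5.47 in shCTL. The highest value was that of the DCP1 and nuclear receptor partner Pnrc1, at 0.37 (adjusted p = 0.057 in the same fit). The helicase Ddx6 had -0.22 and the scaffold Patl1 0.25. Of the 6 measured further cap hydrolases, 5 XRN2 partners, 14 exosome genes and 8 genes of nonsense-mediated decay, 0 passed, with medians of 0.02, -0.10, -0.12 and -0.07. The exosome list holds the machinery of decay from the 3′ end. With the main scaling 10 of its 14 genes were lower in shCM1 within both slides, against 22.6% of all genes, and 1 was higher. All counts within both slides given here for the decay lists used the main scaling only. After quantile normalization 30.2% of all probes were lower within both slides and 31.4% were higher. The list counts were not computed for other scalings, so whether these genes were lower apart from the scaling was not tested.

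The genes that passed the blocked fit were 2 of 20 deadenylation genes, 2 of 7 microRNA effectors and 1 of 10 genes of AU-rich element decay. Together these 5 of 84 genes were near the share of all genes that passed, 6.1%, and no list was tested as such. Btg2, an antiproliferative protein that binds the CCR4-NOT deadenylase and is induced as an immediate early gene, had levels of 2.02 and 2.31 in shCM1, against 1.27 and 1.26 in shCTL. It rose by a log2 difference of 0.90 (adjusted p = 6.07e-05 in the blocked limma fit). Its relative Btg1 had 4.56 and 4.35 in shCM1, against 3.96 and 3.88 in shCTL, and rose by 0.54 (9.58e-04). Ago1, an Argonaute that carries microRNAs, had -1.57 and -1.53 in shCM1, against -0.86 and -0.66 in shCTL, and fell, with a difference of -0.79 (7.42e-04). A second Ago1 probe had -0.37 and did not pass (0.276). Tnrc6b, the scaffold that links Argonaute to deadenylases, had 2.96 and 3.04 in shCM1, against 3.46 and 3.49 in shCTL, and fell, with a difference of -0.48 (0.00329) and, by its other probe, -0.38 (0.033).

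The groups of these 4 genes did not overlap, by the probes that were used for the lists. The 4 were named because they passed the blocked fit, and 31.8% of all probes tested did not overlap. Zfp36l2, a protein that binds AU-rich elements, had levels of 1.15 and 2.29 in shCM1, against 0.80 and 1.95 in shCTL. The slides lay further apart than the groups, and it rose in the blocked limma fit, with 0.35 and 0.34 within the slides (adjusted p = 0.0387). It did not pass the blocked fit after cyclic loess (0.0553), with normexp (0.0573) or without the filter on dim probes (0.108). Leaving out 1 array, in fits without the block, gave differences of -0.23 to 0.92, which take in the gap between the slides. A second Zfp36l2 probe had 0.51 and did not pass (adjusted p = 0.139 in the blocked limma fit). None of the 5 genes passed the blocked fit without an intensity trend, where the adjusted p ran from 0.242 to 0.267.

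**Figure D5:**
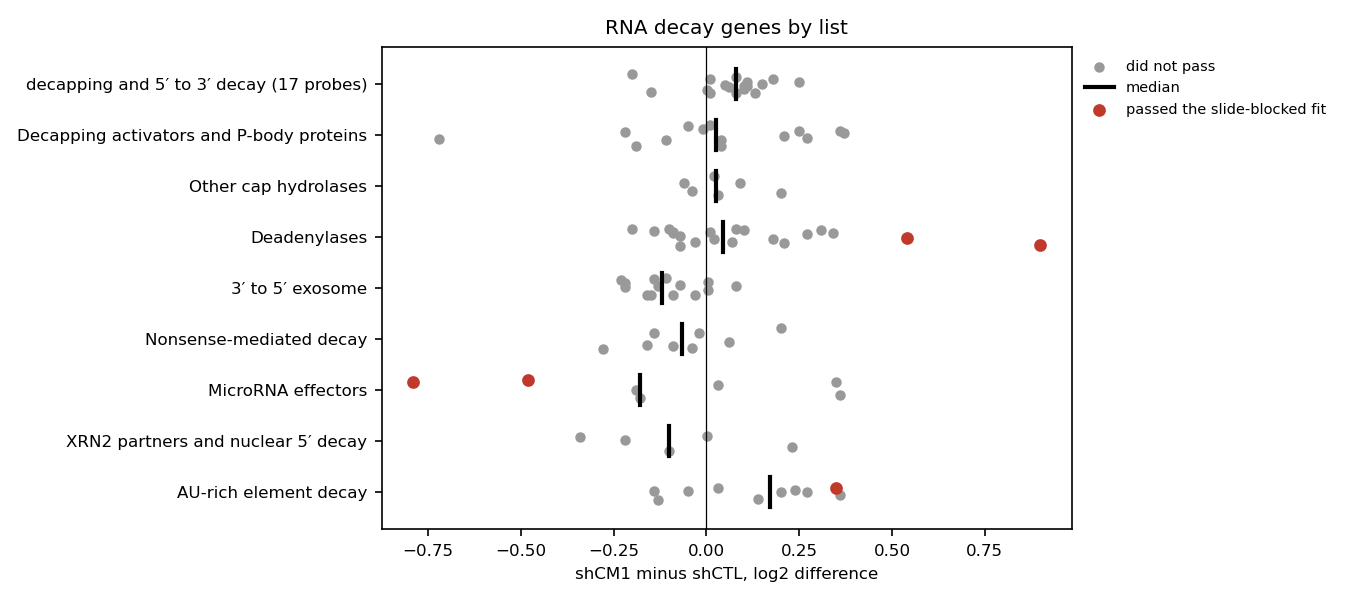
Log2 difference of shCM1 minus shCTL for the 17 probes and for 1 probe per gene in 8 other lists of RNA decay genes. Grey points did not pass, red points passed the limma fit with the slide as a block, and black bars are medians. The 5 red points are Btg2 and Btg1 among the deadenylases, Ago1 and Tnrc6b among the microRNA effectors and Zfp36l2 among the AU-rich element genes.

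Markers of other cells also differed between the groups. Of 18 measured microglial markers 16 were higher in shCM1 within both slides, against 44.0% of all genes, and 7 rose in the blocked limma fit, against 3.33%. The count within both slides used the main scaling only. The list had a median of 0.54 and summed linear levels of 16.8 and 15.5 in shCM1, against 13.2 and 13.5 in shCTL. Cx3cr1 was well above background on 3 of the 4 arrays. In the same fit 4 of 8 inhibitory neuron markers and 2 of 5 fibroblast markers rose, against 3.33% of all genes. Of 7 excitatory neuron markers 3 fell, and of the 10 neuronal markers 1 fell, the tubulin gene Tubb3, at -0.37, against 2.77% of all genes. Of 10 markers of oligodendrocytes and their precursors 2 rose and 1 fell, and of 9 astrocyte and 6 endothelial markers 0 passed. Their part in the values of the decay genes was not tested.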

How the data were processed

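RNA of 4 cultures, 2 per group, was measured on Agilent arrays. The deposited scanner files hold linear spot intensity values. Per the file headers they were read with Agilent Feature Extraction 10.7.3.1, whose processed signal is already background-corrected. The authors' value table, used as an alternative, also holds deposited linear intensity values, and how it was normalized is not given in the sources used.

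Outlier spots (86 to 98 per array) were left out, no gene spot was saturated, and repeated spots were averaged. Levels are log2 values relative to the array's own 75th percentile. Testing kept the 36703 of 41012 probes that were well above background on at least 2 of 4 arrays. The comparison used R 4.3.3 and limma 3.58.1 (lmFit, eBayes with an intensity trend, two-sided, Benjamini-Hochberg over all probes, threshold 0.05), which was tested on simulated data. A second fit took the slide as a block. By the file headers each slide was scanned once and holds the arrays of 1 replicate number. Around the group means, arrays of the same number deviated together, with a correlation of 0.713 across probes. The leading principal component (65.1% of the variance) separated the slides and the next (25.1%) the groups. An exact permutation test of 2 arrays against 2 cannot go below 0.33. Precision is limited by how few arrays there are.

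The members, the lists of decay genes and the markers were chosen with earlier results of these data known. Every member probe is named, with Cmtr1, Dxo and, per list of decay genes, those past the blocked or unblocked fit. Marker lists are given as counts. Lsm6, Pnrc1, Ddx6, Patl1, Map2, Tubb3 and Cx3cr1 were named after their values were seen. List genes used the probe with the highest mean signal. Gene names came from a RefSeq table of assembly GRCr8 for 20285 probes by accession, 2356 by symbol and 165 by an older symbol, and from the array file for 18206. The alternatives were quantile normalization, cyclic loess, normexp (offset 50), the authors' value table, other filters, no intensity trend, 1 probe per gene name and leaving out each array. The fits that left out an array had no block.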

Additional observations from a re-analysis of the deposited data

How the results depend on the processing

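Of the 17 decay probes 0 passed limma's threshold under any of the 20 alternatives, with a lowest adjusted p of 0.126. Only 9 of the 20 had the block. The others passed 0 probes of the whole array, as did the block without an intensity trend, so their 0 says nothing particular to the members. Of 263 differences recomputed without leaving out an array, 30 turned sign, and of 68 with 1 array left out 20 did. Those 68 came from fits without the block, so they take in the gap between the slides. Dcps, Lsm1, Nudt16, Edc3 probe 1 and Xrn1 probe 3 kept their sign throughout. With or without the block, Dcp1a turned to -0.06 after cyclic loess and -0.07 after quantile normalization and in the authors' value table, Xrn1 probe 1 to -0.04, -0.03 and -0.03, Xrn2 probe 3 to -0.0044, -0.01 and -0.01, and Edc4 probe 1 to -0.12, -0.16 and -0.16. With normexp Dcp1b turned to -0.06, Xrn2 probe 2 to -0.01 and Edc4 probe 1 to -0.0017. The cause was not tested. Leaving out each array gave ranges of -0.10 to 0.25 for Dcp1a, -0.03 to 0.04 for Dcp1b, -0.07 to 0.22 for Dcp2, -0.07 to 0.29 for Xrn1 probe 2, -0.46 to 0.16, -0.06 to 0.07 and -0.09 to 0.11 for Xrn2 probes 1 to 3, -0.01 to 0.21 for Edc3 probe 2, and -0.27 to 0.50, -0.29 to 0.65 and -0.42 to 0.01 for Edc4 probes 1 to 3. Without any 1 array, 0 probes of the array passed.

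The replicate block moved the probes passing on the whole array to 2159, against 0 without it, and the other decay genes to 5, against 0. With the block these counts were 967 and 4 after cyclic loess, 1329 and 6 after quantile normalization, 1087 and 5 in the authors' value table, 1429 and 4 with normexp, 354 and 4 without the filter on dim probes, 2159 and 5 for probes well above background on all 4 arrays, and 2053 probes with 1 probe per gene name. The block without an intensity trend called 0, and there the 17 members' intervals ran from -0.52 to 0.57. The block changed no member's call. The counts under other scalings of members higher within both slides, and of members without overlap, were tried after the data were seen. The dim Edc4 probe 1 limits what can be said of its 5′ part.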

Other observations

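A pair of probes with decapping in their array description carry other names and lie outside the 10 genes. A probe described as an mRNA decapping enzyme (TC588872) had levels of 1.14 and 1.64 in shCM1, against 0.86 and 1.45 in shCTL, with log2 differences of 0.27 and 0.19 within the slides and an adjusted p of 0.166 in the blocked limma fit. The predicted gene LOC100909830, described as similar to decapping enzyme 2, had -1.60 and -1.62 in shCM1, against -1.74 and -1.76 in shCTL. Its difference was 0.14 within each slide, with an adjusted p of 0.53 in the same fit. The groups did not overlap for LOC100909830 and overlapped for TC588872.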
